A study of Mus musculus with 4 samples.

Results

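B cells of the spinal cord were compared between 60 days post-injury (dpi) and the uninjured cord, in single-cell RNA-seq of CD45+ cells, the cells that carry the leukocyte surface protein encoded by Ptprc. A cell counted as a B cell when Cd79a and Cd79b, which encode the signaling subunits of the B cell receptor (BCR), together reached 500 CPM (counts per 1000000 reads of the cell) and Csf1r, a receptor gene of microglia and macrophages, stayed under 500 CPM. This rule found 549 B cells among the 1371 cells of both libraries, 25 of 426 uninjured cells (5.87%, 95% interval 3.83 to 8.54) and 524 of 945 cells at 60 dpi (55.4%, 52.2 to 58.7). The whole table held 1825 cells, 454 of them from 7 dpi. Exact Clopper-Pearson intervals are given for shares and exact Poisson intervals for CPM, and both cover counting error only, since the kit counts reads and not molecules.

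The uninjured library came from adult Swiss Webster mice, labelled female, with no treatment. The 60 dpi library came from mice of the same strain and labelled sex after a thoracic contusion of the spinal cord. The injured mice also received a laminectomy, an analgesic and antibiotics, and no sham surgery is described for the uninjured group. Cord segments of several mice, with the meninges taken off, were pooled into 1 library per condition. The gate kept small, compact cells, and the mice were not perfused, so that B cells of the circulation could be among the sorted cells. With 1 library each there are no replicates and no test between conditions: the values below describe these 2 libraries, and library and condition cannot be told apart.

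B cells arise in the bone marrow, where a precursor first pairs its new immunoglobulin heavy chain with a surrogate light chain, made of the Igll1 and Vpreb products, to form the pre-BCR. Later stages replace the surrogate with a kappa or lambda light chain, carry IgM, and raise MHC class II, with which a mature B cell presents antigen to T cells. B cells are sparse in the healthy spinal cord and are known to gather in it during chronic injury and neuroinflammation.

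The markers that the rule did not use were present in both sets of B cells, though not all at like levels. Cd72, an inhibitory coreceptor of B cells, was at 825 CPM (812 to 839) in uninjured B cells and 599 CPM (596 to 602) at 60 dpi, and the B cell transcription factor Pax5 at 196 and 212 CPM. Lower at 60 dpi were the CD20 gene Ms4a1, at 1916 and 681 CPM, and Bank1, a BCR scaffold gene, at 551 and 95.1 CPM. T cells, taken as Cd3d, Cd3g and Trbc2 together at 300 CPM or more with Cd79a and Cd79b under 500 CPM, numbered 33 uninjured and 121 at 60 dpi. They held Cd72 at 2.11 CPM uninjured and 47.5 CPM at 60 dpi. B cell transcripts were thus also counted in 60 dpi T cells, and the T cell level is given beside the main differences below.

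Just inside the rule, the lowest member had 615 CPM of Cd79a and Cd79b in the uninjured library and 503 CPM at 60 dpi. Just outside it, the highest cell had 468 and 499.6 CPM. At 60 dpi 92 members lay between 500 and 1000 CPM, as against 3 uninjured members, and the Csf1r limit left out 38 and 7 cells. Of the 60 dpi members 56 also reached the T cell level of Cd3d, Cd3g and Trbc2, and 0 of the uninjured members did. Doublets were removed by the study at the sorter and by imaging of the wells, and no doublet caller was run here. Of the cell barcodes, 82 were shared by both libraries, 1 of them a B cell in both.

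The depth of the B cells differed: the median was 588068 reads per uninjured cell (14386 to 1478634) and 287398 at 60 dpi (7714 to 3488066), and the sums were 17386522 and 210493422 reads. Shares of cells with a read were therefore counted after thinning each cell to 50000 reads, which kept 24 and 511 B cells and 119 T cells of 60 dpi. The sex-linked reads did not follow the labels at 60 dpi. Reads of Ddx3y, Eif2s3y, Kdm5d or Uty, genes of the Y chromosome, were found in 0 of 25 uninjured B cells and 78 of 524 at 60 dpi, 32 of them with no Xist read. At 7 dpi 35 of 42 B cells had a Y-linked read and 0 had Xist. Of the 524 B cells of 60 dpi, 46 had both Xist and a Y-linked read and 210 had neither. Counts of higher and lower genes are therefore also given without the 60 dpi cells that held a Y-linked read. This leaves cells of unknown sex in the comparison.

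Promoters are shown first for the surrogate light chain genes Igll1 and Vpreb1, with the related Vpreb2, and for H2-Aa and H2-DMb2 of the MHC class II genes, since both groups are described in detail below. The windows are from RefSeq (GRCm38.p6) and run from 250 bases before to 50 after a gene's start. In the first 3, capitals mark the E-box CAGGTG or its reverse complement CACCTG, a hexamer bound by E proteins such as the product of Tcf3.
Igll1, chr16:16863936-16864235, - strand: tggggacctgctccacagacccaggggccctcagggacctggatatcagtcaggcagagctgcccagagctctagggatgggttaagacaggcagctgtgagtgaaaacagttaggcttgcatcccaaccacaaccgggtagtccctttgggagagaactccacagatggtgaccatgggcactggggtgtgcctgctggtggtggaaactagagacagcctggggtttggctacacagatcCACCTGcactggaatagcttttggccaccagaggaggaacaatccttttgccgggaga
Vpreb1, chr16:16869206-16869505, - strand: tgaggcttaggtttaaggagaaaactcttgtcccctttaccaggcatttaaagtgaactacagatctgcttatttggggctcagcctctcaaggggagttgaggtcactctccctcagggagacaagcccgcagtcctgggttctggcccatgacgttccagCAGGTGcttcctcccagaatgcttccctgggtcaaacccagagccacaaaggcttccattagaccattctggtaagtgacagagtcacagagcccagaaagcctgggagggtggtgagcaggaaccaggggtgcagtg
Vpreb2, chr16:17980315-17980614, + strand: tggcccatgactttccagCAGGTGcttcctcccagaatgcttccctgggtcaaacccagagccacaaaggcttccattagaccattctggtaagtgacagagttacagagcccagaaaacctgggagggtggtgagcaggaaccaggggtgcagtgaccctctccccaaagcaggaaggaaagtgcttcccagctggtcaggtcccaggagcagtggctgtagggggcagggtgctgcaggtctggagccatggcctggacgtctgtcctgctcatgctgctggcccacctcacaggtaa
The hexamer was found in 1 place on either strand in each of these promoters, in 0 places in that of Vpreb3, and in 20.2% of 32851 promoters of the same length. The windows of Vpreb1 and Vpreb2 share a closely alike stretch that holds the hexamer, which lies further from the listed start in Vpreb2. The genes are closely alike too, so reads could be split between them. The Vpreb1 window lies inside the gene span given below, which is from another annotation with another start.

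For the class II genes, capitals mark ATTGG, read on either strand as ATTGG or CCAAT, the core of the Y box through which NF-Y binds class II promoters.
H2-Aa, chr17:34287774-34288073, - strand: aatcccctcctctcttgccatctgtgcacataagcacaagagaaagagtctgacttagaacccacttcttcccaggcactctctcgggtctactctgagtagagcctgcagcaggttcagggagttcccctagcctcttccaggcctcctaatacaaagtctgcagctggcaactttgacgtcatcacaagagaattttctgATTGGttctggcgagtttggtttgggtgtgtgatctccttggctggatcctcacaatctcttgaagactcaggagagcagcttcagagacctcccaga
H2-DMb2, chr17:34144999-34145298, + strand: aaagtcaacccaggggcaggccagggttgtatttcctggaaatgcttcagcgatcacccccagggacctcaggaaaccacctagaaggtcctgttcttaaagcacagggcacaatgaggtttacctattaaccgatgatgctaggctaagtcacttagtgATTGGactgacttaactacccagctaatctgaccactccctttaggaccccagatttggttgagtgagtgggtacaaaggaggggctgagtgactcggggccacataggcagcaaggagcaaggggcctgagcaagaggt
It had 1 match in H2-Aa, H2-DMb1, H2-DMb2 and H2-Ob and 2 in H2-Eb1, while 37.4% of all promoters held it. Of the 2 starts listed for H2-DMa, 1 had a match. No window was found for H2-Ab1 or Cd74. These matches are descriptions of the sequence, not evidence of binding.

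Of 1960 genes compared, those with at least 50 CPM in 1 of both sets of B cells and detected in at least 25% of the thinned cells of that set, 372 (19.0%) were at least 2-fold higher at 60 dpi and 245 (12.5%) at least 2-fold lower, 617 (31.5%) in all. Ratios are log2 ratios of CPM + 1, with a median of 0.01 over all genes, and a gene is called higher or lower only where the ratio reaches 1 in size. At least 4-fold, 145 genes (7.4%) were higher and 48 (2.45%) lower, 193 (9.85%) in all. Scaled by TMM factors, which moved each ratio by about -0.42, 230 genes were higher and 470 lower, so the balance of the 2 directions depended on the scaling. Of the 372 higher genes 252 passed the filter only through the 60 dpi cells, where they are high, so that counts and medians of higher genes in the lists below are partly set by the filter. Without the cell of most reads of each gene in each library they were 626 and 95. Without the cells that held a Y-linked read the counts were 348 and 245. Counts in each list below are to be read against the 19.0% of all genes that were higher and the 12.5% that were lower.

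**Figure D1:**
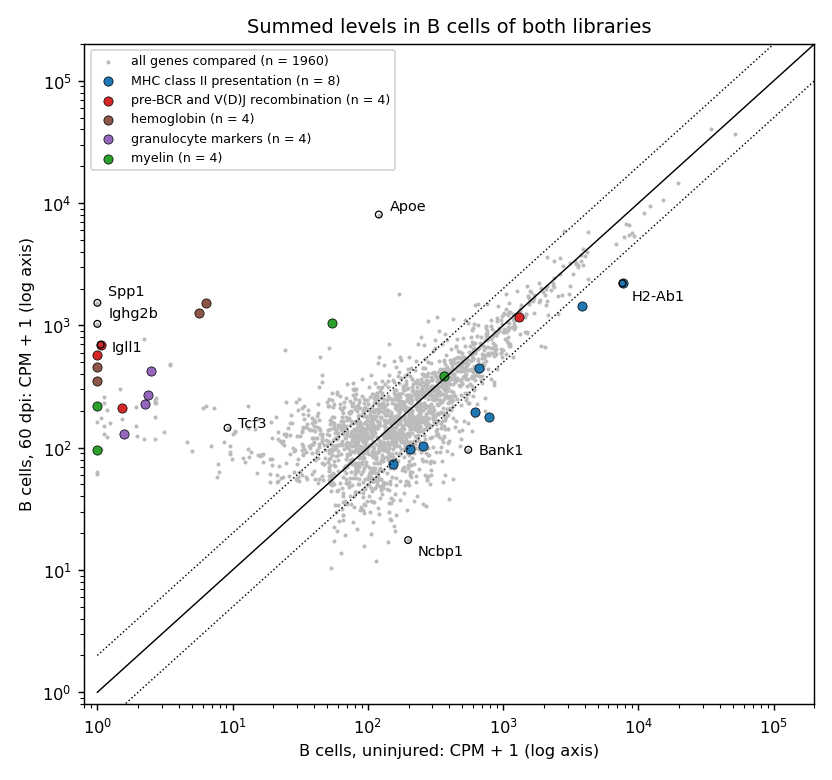
Summed levels of 1960 genes in the 25 uninjured B cells (x axis) and the 524 B cells of 60 dpi (y axis), both as CPM + 1 on log axes, with equality as a solid line and 2-fold as dotted lines. Of the colored lists, hemoglobin and granulocyte genes and 3 of the 4 pre-BCR genes lie near 0 CPM uninjured, and 7 of 8 MHC class II genes lie below the lower dotted line.

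Some of the highest ratios belonged to transcripts that T cells of 60 dpi carried at higher summed levels than the B cells. Spp1, which encodes the secreted protein osteopontin, had 0 reads in uninjured B cells and 1528 CPM (1523 to 1533) at 60 dpi, at least 8855-fold higher against a floor of 3 reads. It was at 2123 CPM in 60 dpi T cells. After thinning, 95.7% of the B cells and 94.1% of the T cells of 60 dpi held a Spp1 read. Lyz2, the lysozyme gene of myeloid cells, was at 4.37 CPM uninjured and 1296 CPM at 60 dpi, and at 3658 CPM in the T cells. Ccl5, a chemokine of T and NK cells, was at 1.21 and 772 CPM, and at 4174 CPM in the T cells. For Spp1, Lyz2 and Ccl5 the summed level of the 60 dpi B cells was below that of the 60 dpi T cells. The median cell did not follow this order for Spp1, at 111 CPM in B cells and 94.3 CPM in T cells. It did for Lyz2, at 286 and 425 CPM, and for Ccl5, at 32.3 and 241 CPM. Uninjured T cells held 12.3 CPM of Spp1, 853 CPM of Lyz2 and 977 CPM of Ccl5. Others of the 15 highest ratios by rule, among them Ighg2b, Igll1, Vpreb1 and Hbb-bs, were more than 2-fold above the 60 dpi T cells in summed level. Cells of 60 dpi with Csf1r at 500 CPM or more, and Cd79a and Cd79b under 500 CPM, held 306 CPM of Ighg2b and 347 CPM of Hbb-bs. Without the cell of most reads, the 60 dpi B cells held less, 274 and 277 CPM. Those Csf1r cells held 52.1 CPM of Igll1 and 50.3 CPM of Vpreb1.

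Over the list of higher genes, 317 of 372 (85.2%) had a 60 dpi T cell level no more than 2-fold below that of the B cells, as did 89.0% of the 1343 genes that were neither higher nor lower. The remaining 55 higher genes were more than 2-fold above the T cells, a share to be read against the 13% of all 1960 genes that were. The higher genes were called from the same 60 dpi B cell level, which partly sets this share. They comprised 11 replication-dependent histone genes, 3 hemoglobin genes and 41 others. At least 2-fold higher in both cell types were 142 of the 372. The T cells are themselves mixed by their RNA: Ngp, a gene of neutrophil precursors, was at 5176 CPM in those of the uninjured cord and 3883 CPM at 60 dpi. No Csf1r limit was set for T cells, and 16 microglia markers together were at 23101 CPM in the uninjured ones, against 10399 CPM in uninjured B cells.

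**Figure D2:**
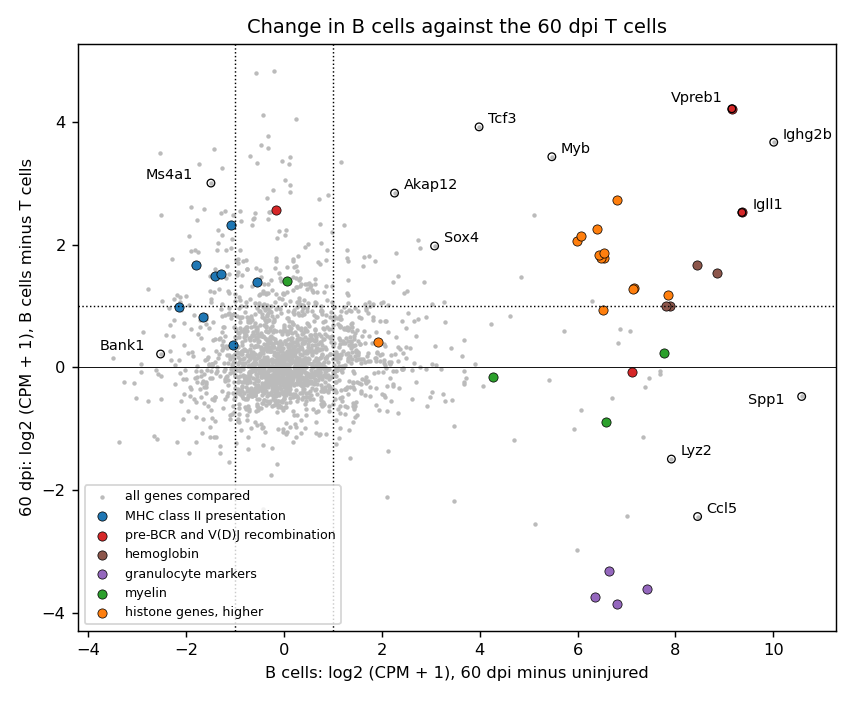
Each point is 1 of 1960 genes: the log2 difference between 60 dpi and uninjured B cells (x axis) against the log2 difference between B and T cells of 60 dpi (y axis), both of CPM + 1, with dotted lines at 2-fold. Vpreb1, Igll1, Tcf3, Myb and Sox4 are far to the right and above the T cells, Spp1, Lyz2, Ccl5 and the 4 granulocyte genes to the right and below them.

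The surrogate light chain genes stood well above the T cells. Igll1, chr16:16860671-16863985 on the minus strand of GRCm38, had 1 read (0.0575 CPM) in uninjured B cells and was at 693 CPM (689 to 697) at 60 dpi, against 119 CPM in 60 dpi T cells. The ratio to that 1 read was 12049, with a counting interval from 2163 to 475918. Vpreb1, chr16:16868403-16870843 on the same strand, had 0 reads uninjured and 568 CPM (565 to 571) at 60 dpi, at least 3291-fold higher, against 29.5 CPM in the T cells. These transcripts were unevenly spread over the cells. The median B cell of 60 dpi had 0 CPM of either gene, and the highest had 14760 CPM of Igll1 and 13786 CPM of Vpreb1.

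After thinning, 28.2% of the 60 dpi B cells held an Igll1 read (0 of 24 uninjured), as did 20.2% of the 60 dpi T cells. For Vpreb1 the shares were 28.6% and 15.1%. At 500 CPM or more of Igll1, Vpreb1 and Vpreb2 together there were 88 of 524 B cells at 60 dpi (16.8%, 13.7 to 20.3), called pre-BCR cells below. There were 0 of 25 uninjured (0 to 13.7, and a count of 0 allows a share of up to 12%) and 6 of 42 at 7 dpi. The uninjured and 60 dpi intervals touch. The same level was reached by 10 of 121 T cells at 60 dpi (8.26%, 4.03 to 14.7) and 0 of 33 uninjured T cells. At 60 dpi 31 B cells lay within 2-fold of this limit. These cells were chosen by Igll1 itself, so its level in them is a description of the choice: it was at 3055 CPM, and in the other B cells of 60 dpi at 16.9 CPM in those with low and 6.80 CPM in those with high MHC class II genes.

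Of the 13 genes of the pre-BCR and V(D)J recombination list, 4 were compared and 3 were higher (19.0% of all genes were): Igll1, Vpreb1 and Il7r. The list median was 8.13, or 8.23 with the gene at 0 reads set at its bound. These 3 genes were under 50 CPM uninjured, so they passed the filter only through the 60 dpi cells, where they are high. The count and the median are thus partly set by the filter. Il7r, the receptor for the growth factor of B cell precursors, was at 0.518 CPM uninjured and 208 CPM at 60 dpi, a log2 ratio of 7.11. T cells of 60 dpi held 219 CPM of Il7r, which they also express themselves. The fourth gene, Vpreb3, a partner of immunoglobulin chains during assembly, was at 1309 and 1170 CPM, a ratio of -0.16. The other genes of this list did not pass the filter on level and share of cells. Dntt, which adds bases at V(D)J junctions, had 0 reads uninjured and 78.2 CPM at 60 dpi, and Vpreb2 0 reads and 91.6 CPM.

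Of the transcription factors of the B lineage, 3 of 12 compared were higher and 0 lower, with a median of 0.0032, and the count is near the 19.0% of all genes that were higher. Tcf3, which encodes the E proteins E12 and E47, was at 8.17 CPM (6.88 to 9.63) uninjured and 144 CPM (143 to 146) at 60 dpi, 17.7-fold higher, against 8.57 CPM in T cells. Myb, required early in lymphocyte development, was at 1.67 and 118 CPM, against 9.94 CPM in the T cells. Sox4, needed for the survival of pro-B cells, was at 18.1 and 160 CPM, against 39.8 CPM. All 3 were more than 2-fold above the 60 dpi T cells. They were also spread beyond the pre-BCR cells: Tcf3 was at 155 CPM in those cells, 155 CPM in 60 dpi B cells with low MHC class II genes and 120 CPM in those with high ones. Of the uninjured reads, a single cell gave 78.9% of those of Tcf3 and 72.3% of those of Sox4, and without the cell of most reads in each library the log2 ratios were 5.65 and 4.53. On the mean of single-cell CPM they were 2.74 and 3.48. Pax5 (0.11), Ebf1 (-0.34) and Spib (-0.55), which hold the B cell program, differed by less than 2-fold.

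**Figure D3:**
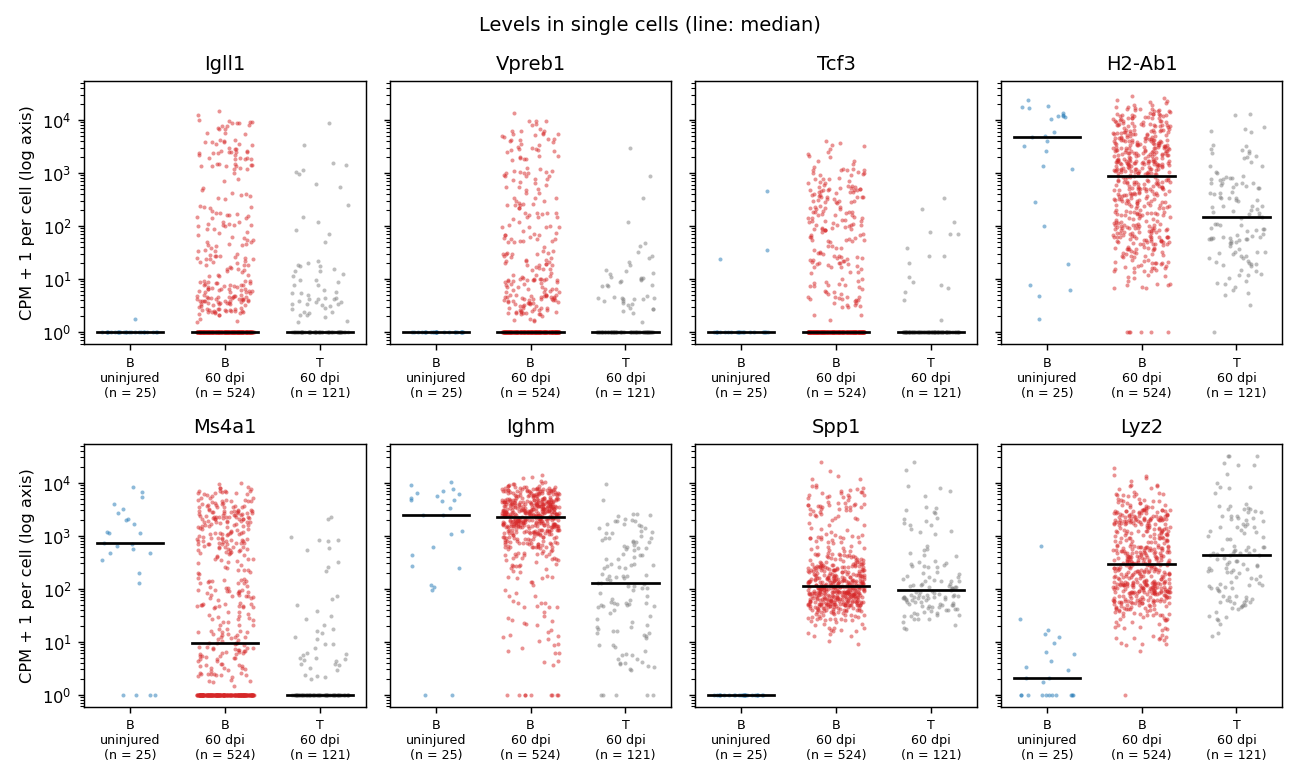
CPM + 1 in single cells (log axis) for 8 genes in the 25 uninjured B cells, the 524 B cells and the 121 T cells of 60 dpi, with the median as a line. Igll1 and Vpreb1 reach 14760 and 13786 CPM in single 60 dpi B cells beside a median of 0, and H2-Ab1 and Ms4a1 have lower medians at 60 dpi. Spp1 and Lyz2 are above 0 CPM in most 60 dpi cells, with medians of 111 and 286 CPM in B cells and 94.3 and 425 CPM in T cells.

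The genes of MHC class II presentation were lower at 60 dpi. Of 8 compared, 7 were at least 2-fold lower (12.5% of all genes were) and 0 higher, with a median of -1.35 beside 0.01 over all genes. H2-Ab1, the beta chain of I-A (chr17:34257689-34269419, plus strand), was at 7627 CPM (7586 to 7668) in uninjured B cells and 2208 CPM (2201 to 2214) at 60 dpi, 3.45-fold lower. H2-Aa, its alpha chain, was at 3814 and 1443 CPM, a ratio of -1.40. H2-DMb2 and H2-DMa, chains of H2-M that loads peptides, were lower by -2.15 and -1.65, and H2-Ob, a chain of its inhibitor H2-O, by -1.29. Cd74, the invariant chain, had a ratio of -1.08 and H2-DMb1 of -1.05. H2-Eb1 was at 662 and 451 CPM and was not called.

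The 60 dpi T cells held 691 CPM of H2-Ab1 and 515 CPM of H2-Aa, against 4.80 and 12.4 CPM in T cells of the uninjured cord. The level of single cells was uneven in both libraries. The median B cell had 4774 CPM of H2-Ab1 uninjured and 864 CPM at 60 dpi, and the ranges overlapped, from 0.740 to 23655 CPM and from 0 to 28316 CPM. B cells with at least 3000 CPM of H2-Aa, H2-Ab1 and H2-Eb1 together and no pre-BCR level numbered 16 of 25 uninjured (64%, 42.5 to 82.0) and 187 of 524 at 60 dpi (35.7%, 31.6 to 40.0). These MHC-II-high cells are a range cut from a score, with 3 B cells uninjured and 162 at 60 dpi within 2-fold of the limit. MHC-II-low cells without pre-BCR numbered 9 of 25 and 249 of 524.

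Within the MHC-II-high cells the class II differences were smaller. H2-Ab1 was at 11202 CPM uninjured and 5885 CPM at 60 dpi, a ratio of -0.93, and H2-Aa at 5620 and 3766 CPM, a ratio of -0.58. H2-DMb2 was at 1008 and 439 CPM and still more than 2-fold lower (-1.20), as was H2-Ob (-1.18). The list median was -0.75. Among the MHC-II-low cells the direction turned for H2-Ab1 (436 and 531 CPM), H2-Aa (181 and 364 CPM) and H2-Ob (0.346 and 71.7 CPM), of which the first 2 were used to choose the cells. It did not turn for H2-DMb2 (348 and 54.3 CPM), H2-DMa, H2-DMb1 or Cd74. Since those cells were chosen by 3 genes of the list, the values of H2-Aa, H2-Ab1 and H2-Eb1 in them are set partly by the choice. Over the same 1960 genes, 419 (21.4%) were higher and 249 (12.7%) lower within the MHC-II-high cells. Of the 372 higher genes 271 were also at least 2-fold higher there, and of the 245 lower genes 163 were also lower.

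Genes of B cell identity were level or lower: 5 of 13 compared were lower (12.5% of all genes were), 0 higher, and the median was -0.63. Ms4a1, which encodes CD20, was at 1916 CPM (1896 to 1937) uninjured and 681 CPM (677 to 684) at 60 dpi, 2.82-fold lower. Its median over single cells was 729 CPM uninjured and 8.50 CPM at 60 dpi. By make-up, Ms4a1 was at 1886 and 1436 CPM in the MHC-II-high cells, 1978 and 407 CPM in the MHC-II-low cells and 236 CPM in the pre-BCR cells. The difference in Ms4a1 was thus small among MHC-II-high cells (-0.39) and larger among the MHC-II-low cells.

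Bank1, a scaffold of BCR signaling, was lower within the MHC-II-high cells as well. It was at 551 CPM (540 to 562) uninjured and 95.1 CPM (93.8 to 96.5) at 60 dpi, a ratio of -2.52, and of -1.69 in the MHC-II-high cells. In the MHC-II-low cells it was at 17.8 and 33.5 CPM. The 60 dpi T cells held 81.6 CPM of Bank1, close to the B cells. Cd24a (-1.05) and Ptprc (-1.30) were also lower. Ly6d and Cd72 had ratios of -0.63 and -0.46, and Cd79b, which the rule used, of -0.21. A further pair of B cell genes was picked after their values were seen, for being lower at 60 dpi and nearly absent from uninjured T cells: Faim3, the Fc receptor for IgM, at 603 and 181 CPM, and Napsa, an aspartic protease, at 643 and 189 CPM.

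The 15 lowest ratios by rule included Ncbp1 (-3.50), a subunit of the nuclear cap-binding complex, Brwd1 (-3.38), a chromatin reader that B cell precursors use at the light chain locus, Phf6 (-2.93), Aff3 (-2.91) and Cd180 (-2.88). Cd180, a Toll-like receptor homolog of B cells, was at 254 CPM (246 to 262) uninjured and 33.6 CPM (32.9 to 34.4) at 60 dpi, and at -3.15 in the MHC-II-high cells. Brwd1 was at 398 and 37.3 CPM, with 60.1% of its uninjured reads from 1 cell, and the ratio without the cell of most reads was -2.40. The others were CAAA01098150.1, Synj2bp, Prorsd1, Dennd5b, Kti12, Pag1, Ptk2b, Akr7a5, H2-Ea-ps and Abhd17b, from -3.27 to -2.52. Each of the 15 was read in no more than 37.5% of the 24 thinned uninjured cells, that is 9 cells. Of all 245 lower genes, 89 had over 50% of their uninjured reads from 1 cell.

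Against T cells, 64 of the 245 lower genes (26.1%) had an uninjured T cell level no more than 2-fold below that of the uninjured B cells, as did 69.9% of the 1343 genes neither higher nor lower. The lower genes were called from the same uninjured B cell level, so that a smaller share is partly set by the choice. In the T cells, 36 of the 245 were also at least 2-fold lower at 60 dpi, while 105 were at least 2-fold higher. Of the 1343 other genes 78 were lower and 295 higher in the T cells.

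Immunoglobulin genes did not move as 1 group: of 4 compared, 1 was higher and 1 lower. Ighm, the IgM heavy chain, was at 3308 CPM (3281 to 3335) uninjured and 2614 CPM (2607 to 2621) at 60 dpi, a ratio of -0.34. Igkc, the kappa light chain, was at 8526 and 5451 CPM, a ratio of -0.65. Iglc2, a lambda light chain, was at 2551 and 1234 CPM and was lower (-1.05), with 37.1% of its uninjured reads from 1 cell. Within the MHC-II-high cells the ratio of Iglc2 was 0.00083.

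Ighg2b, the heavy chain of IgG2b (chr12:113302965-113307933, minus strand), was the higher one, with 0 reads uninjured and 1028 CPM (1024 to 1033) at 60 dpi. A single cell set this level. It held 109019 CPM of Ighg2b, 73.5% of all Ighg2b reads of the 60 dpi B cells, while the median of the other cells was 5.29 CPM. That cell also held Igkc at 70742 CPM, Igj, the joining chain of secreted immunoglobulin, at 6498 CPM, and Xbp1 and Mzb1, genes of antibody secretion, at 969 and 522 CPM. It had Ms4a1 at 1178 CPM and 0 reads of Sdc1 and Prdm1, which mark plasma cells. Without the cell of most reads Ighg2b still had a log2 ratio of 8.10, but after thinning 42.7% of the B cells and 42.0% of the T cells of 60 dpi held a read.

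Of the plasma cell list 0 of 4 compared genes were called, with a median of 0.26. Mzb1 was at 264 and 271 CPM, Igj at 107 and 150 CPM, and Herpud1, a gene of the response to unfolded proteins, at 412 and 641 CPM. Of the 8 germinal center genes, the 12 cytokine and IL-23 signaling genes and the 10 T cell markers, 0 passed the filter on level and share of B cells.

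In BCR signaling, 1 of 9 genes was higher and 1 lower, with a median of -0.19. These counts are near or below the shares of all genes, 19.0% higher and 12.5% lower. Syk, the kinase that Cd79a and Cd79b recruit, was at 492 CPM (481 to 502) uninjured and 138 CPM (136 to 140) at 60 dpi, a ratio of -1.82 and of -2.24 in the MHC-II-high cells. Vav1, a nucleotide exchange factor downstream, was at 32.7 and 96.3 CPM, with 95.6% of its uninjured reads from 1 cell. The adaptor Blnk was level, at 332 and 321 CPM. Siglecg, an inhibitory receptor, was at 489 and 267 CPM (-0.87).

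Of the homing and chemokine receptors, 2 of 5 were higher and 1 lower (19.0% and 12.5% of all genes were). The integrin subunits Itga4 and Itgb1, which form VLA-4 for entry into inflamed tissue, were at 49.6 and 139 CPM and at 17.9 and 79.9 CPM, ratios of 1.47 and 2.10. T cells of 60 dpi held more Itgb1, 351 CPM, and a similar level of Itga4, 128 CPM. Ccr7, the receptor for lymph node homing, was at 262 and 116 CPM (-1.17), but its ratio was 1.56 in the MHC-II-low cells. S1pr1, the receptor for exit from lymphoid tissue, was at 147 and 88.1 CPM and was not called.

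Among the BAFF, CD40 and lymphotoxin genes 1 of 4 was lower and 0 higher. Cd86, a costimulator of T cells, was at 103 and 28.8 CPM (-1.80). Tnfrsf13c, the receptor for the survival factor BAFF, was at 192 and 209 CPM, a ratio of 0.12.

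Of the cell cycle genes 3 of 4 compared were higher (19.0% of all genes were) and 0 lower, with a median of 1.71. Hmgb2, a chromatin protein of dividing cells, was at 333 and 892 CPM (1.42), the tubulin gene Tuba1b at 90.2 and 363 CPM, and Tubb5 at 2 reads and 149 CPM. T cells of 60 dpi held 703 CPM of Hmgb2. B cells with at least 50 CPM of Mki67 or Top2a, genes of dividing cells, numbered 1 of 25 uninjured (4%, 0.101 to 20.4) and 66 of 524 at 60 dpi (12.6%, 9.88 to 15.7). The 2 intervals overlap.

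Of 65 replication-dependent histone genes 17 were compared, and 13 of them were higher (19.0% of all genes were) and 0 lower. All 13 passed the filter only through the 60 dpi cells, where they are high. Their count and the list median of 6.44 are thus partly set by the filter. Of all 410 genes that passed only through the 60 dpi cells, 252 were higher. Summed over all 65 genes, the level was 826 CPM uninjured and 4894 CPM at 60 dpi. Of the 13, 11 were more than 2-fold above the 60 dpi T cells. Hist1h2ae, an H2A gene, was at 0.920 CPM uninjured, with all 16 reads from 1 cell, and at 215 CPM (213 to 217) at 60 dpi, against 31.6 CPM in T cells. Hist1h2ag was at 0.115 and 258 CPM. Copies of these genes are nearly identical, so that the split of reads between them is uncertain.

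Of 6 compared genes of glycolysis 4 were higher (19.0% of all genes were) and 0 lower, with a median of 1.18. The median 60 dpi B cell level was below that of the T cells (-0.66). Gapdh was at 14.9 and 84.3 CPM (2.42), Pkm at 55.4 and 152 CPM (1.44), Eno1 at 122 and 289 CPM (1.24) and Aldoa at 85.1 and 185 CPM (1.11). With TMM scaling, about 0.42 lower, Eno1 and Aldoa would not reach 2-fold. Of the nuclear genes of the respiratory chain 1 of 15, Cox4i1 (1.38), was higher, fewer than the 19.0% of all genes, with a median of 0.27. With TMM scaling Cox4i1 would not reach 2-fold either.

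The genes of stress and activation were mostly level. Of 14 immediate early genes 12 were not called, with a median of 0.02: Fos was at 983 and 1029 CPM and Jun at 679 and 805 CPM. Ier2 was lower (-1.03), and Atf3, a stress factor, higher (1.58), though on the mean over single cells its ratio was -0.49. Of 7 heat shock genes Hspa1b was lower (-1.94), with 88.5% of its uninjured reads from 1 cell and a ratio of 0.58 without it. Of 84 cytosolic ribosomal protein genes 4 were higher and 3 lower, fewer than the 19.0% and 12.5% of all genes. Of 14 mitochondrially encoded genes 0 were called either way. The interferon-stimulated list had 1 compared gene, Ifi27l2a, at 43.1 and 550 CPM in B cells and 481 CPM in 60 dpi T cells.

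**Figure D4:**
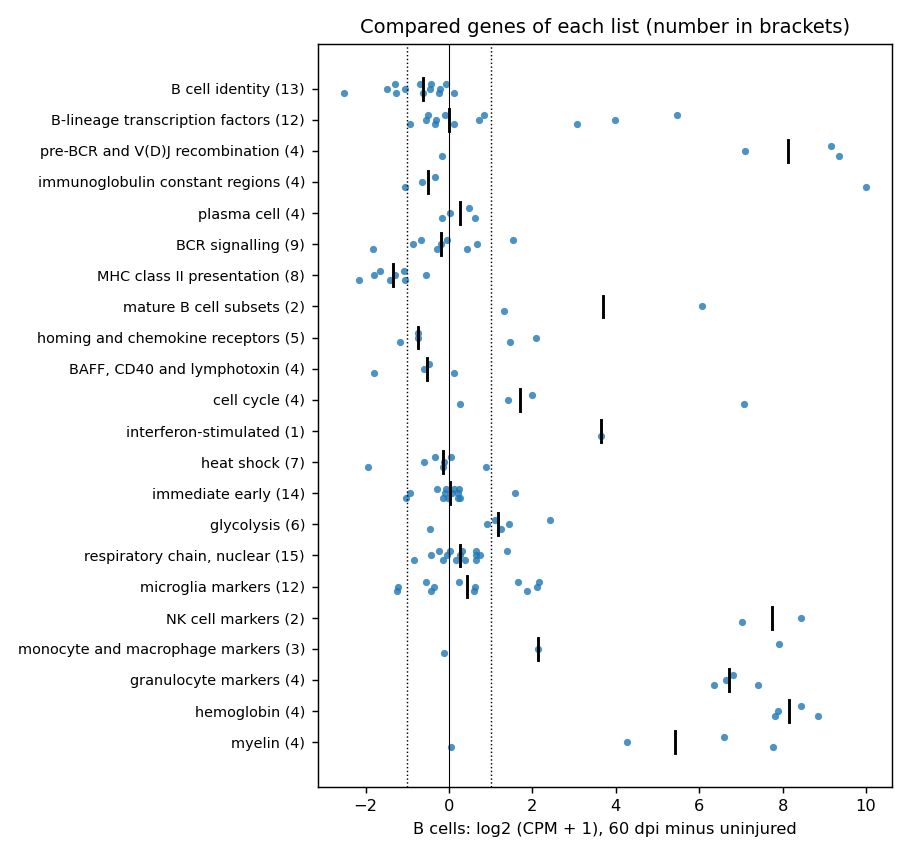
Log2 ratio of CPM + 1 between 60 dpi and uninjured B cells for the compared genes of each list (points, number in brackets), with the list's median as a bar and dotted lines at 2-fold. The MHC class II genes lie at or below -0.55, and the 4 granulocyte and 4 hemoglobin genes lie above 6.

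Markers of other cells moved with these differences, and their part in them was not tested. All 4 compared granulocyte markers were higher in 60 dpi B cells (19.0% of all genes were), with a median of 6.73. They passed the filter only through the 60 dpi cells, where they are high, so the count and median are partly set by the filter. By summed reads, the 9 genes of that list together were at 39.5 CPM in uninjured B cells and 1117 CPM at 60 dpi. The T cells were at 13837 and 14607 CPM. The median cells were closer: at 60 dpi the 9 genes together had a median of 918 CPM in B cells and 982 CPM in T cells. In the uninjured library the medians were 4.15 CPM in B cells and 4.79 CPM in T cells. S100a8, an abundant neutrophil protein, had 26 reads uninjured and was at 424 CPM at 60 dpi. In the thinned cells of 60 dpi 76.1% of the B cells and 77.3% of the T cells held an S100a8 read.

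Hemoglobin genes were higher too, 4 of 4 compared (19.0% of all genes were), and their summed levels stood above the T cells. They also passed the filter only through the 60 dpi cells, which partly sets this count. Hba-a1 was at 5.41 and 1515 CPM (756 CPM in 60 dpi T cells), and Hba-a2 at 4.66 and 1270 CPM. Of their uninjured reads 1 cell gave 72.3% and 84.0%. Hbb-bs and Hbb-bt had 0 reads uninjured and 458 and 347 CPM at 60 dpi, where 1 cell gave 39.8% and 40.8% of the reads. Without the cell of most reads Hbb-bs was at 277 CPM, Hbb-bt at 206 CPM and Hba-a1 at 1113 CPM. Hba-a1 and Hba-a2 encode the same protein, so that their reads are hard to separate.

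Of the myelin genes 3 of 4 were higher (19.0% of all genes were). Mbp, the myelin basic protein gene, was at 53.6 and 1047 CPM, and at 1172 CPM in 60 dpi T cells. Mobp, also of oligodendrocytes, had 0 reads uninjured and 218 CPM at 60 dpi. Both NK cell markers compared were higher, with Nkg7, a granule protein gene, at 0.230 and 158 CPM. Mobp and both NK cell markers passed the filter only through the 60 dpi cells, where they are high. Of the monocyte and macrophage markers 2 of 3 were higher (19.0% of all genes were), Lyz2 and Lgals3.

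Microglia markers went both ways, with 4 of 12 higher and 2 lower (19.0% and 12.5% of all genes were). The 16 genes of the list together were at 10399 CPM in uninjured B cells and 8560 CPM at 60 dpi. P2ry12, a purinergic receptor of homeostatic microglia, was at 247 and 105 CPM (-1.23), and Ctss, a lysosomal protease, at 1200 and 937 CPM. Apoe, the lipid carrier apolipoprotein E, was at 119 CPM (114 to 125) uninjured and 8057 CPM (8045 to 8069) at 60 dpi, when it was read in 100% of thinned B cells and at 13050 CPM in T cells. With Cd9, a tetraspanin at 59.8 and 152 CPM, it made up the 2 compared genes of the mature B cell subset list.

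Other genes higher in B cells and well above the T cells were chosen after their values were seen. Akap12, a scaffold for protein kinase A, was at 58.1 CPM (54.6 to 61.9) uninjured and 282 CPM (280 to 284) at 60 dpi, against 38.4 CPM in T cells, with a ratio of 2.26 and of 2.34 in the MHC-II-high cells. Pkig, an inhibitor of that kinase, was at 142 and 699 CPM, against 191 CPM in T cells, with a ratio of 2.29 and of 2.28 in the MHC-II-high cells. Both ratios were thus as large among the MHC-II-high cells as over all B cells. Stambpl1, a deubiquitinase, was at 152 and 357 CPM, a ratio of 1.23 that was 0.05 in the MHC-II-high cells.

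The rest of the 15 highest ratios by rule were Mobp, Cd63 (7.69), a tetraspanin of endosomes, its pseudogene Cd63-ps (7.45) and Txn1 (7.69), the thioredoxin gene. Cd63 was at 0.460 and 300 CPM, and Txn1 had 2 reads uninjured and 229 CPM at 60 dpi. The 60 dpi T cells held 313 CPM of Cd63 and 248 CPM of Txn1, more than the B cells.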

How the data were processed

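CD45+ cells of pooled mouse spinal cord were sorted, imaged in ICell8 nanowells and sequenced with a SMART-seq 3' kit. The authors mapped the reads to mm10, and the deposited values are whole read counts per gene and cell, without normalization, for 39066 genes. Seurat is named in the submitters' notes for later steps. Of the columns, 0 belonged to no library. The 3 dpi cells were not analysed here.

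Counts were summed over the B cells of a library and scaled to CPM (counts per 1000000) by all reads of those cells. Ratios are log2 of CPM with a pseudocount of 1. T cells were summed likewise. The intervals have a level of 95%, and a gene with 0 reads is compared with a floor of 3 reads (0.173 CPM in uninjured B cells). With 1 library per condition, no test was made, and nothing says how the mice would vary. Uninjured values rest on 25 cells, and those at 60 dpi on 524.

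The B cells, T cells and gene lists were chosen with earlier results of these data known, so no list is independent evidence. The genes named by rule were the 15 highest and the 15 lowest ratios among compared genes whose ratio was at least 1 in size, with the same sign, on the mean of single-cell CPM and with the cell of most reads left out in each library. Genes of the lists were added, and genes chosen after their values were seen are said to be so. Of 313 list symbols 310 were found. Some genes of the lists are counted but not reported here by name. Gene positions are those of GENCODE vM21 (GRCm38). The calculation was tested on simulated data. The alternatives were other limits for Cd79a with Cd79b (1000 CPM) and Csf1r (50 CPM or none), removal of cells with T cell markers, Y-linked reads, pre-BCR genes or under 100000 reads, MHC-II-high or MHC-II-low cells alone, TMM factors from edgeR 4.0.16, a total that leaves out hemoglobin, ribosomal protein and mitochondrial genes, a pseudocount of 10, filters of 200 CPM or none, other depths of thinning (20000 and 100000 reads), a mean over cells, the cell of most reads left out, and a 4-fold limit. Python 3.11.15, numpy 2.4.6, pandas 2.3.3, scipy 1.17.1, matplotlib 3.10.9 and R 4.3.3 were used.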

Additional observations from a re-analysis of the deposited data

Results flagged for a closer look

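The following genes were at least 2-fold lower at 60 dpi in B cells but at least 2-fold higher in T cells, and the difference between the cell types was not tested, since each condition is 1 library. The B cell log2 ratios were -3.38 for Brwd1, -2.93 for Phf6 and -2.59 for Ptk2b, with T cell ratios of 2.46, 4.30 and 1.56. For MHC class II genes the B cell ratios were -1.40 for H2-Aa, -1.79 for H2-Ab1, -1.65 for H2-DMa, -1.05 for H2-DMb1 and -2.15 for H2-DMb2, with T cell ratios of 5.27, 6.90, 2.01, 1.31 and 2.20. For the other B cell genes they were -1.05 for Iglc2, -1.49 for Ms4a1, -2.52 for Bank1, -1.05 for Cd24a and -1.76 for Napsa, with T cell ratios of 5.60, 5.75, 6.31, 2.30 and 5.48. T cell levels stayed below the 60 dpi B cells for H2-Ab1 (4.80 and 691 CPM), Ms4a1 (0.576 and 83.7), Bank1 (0.0384 and 81.6) and Napsa (0.154 and 50.5). For Brwd1, Phf6 and Ptk2b the 60 dpi T cells were above the B cells. B cells were 5.87% of the uninjured library and 55.4% at 60 dpi, and the source of these T cell reads was not tested.

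In the 7 dpi library, which entered no comparison, 35 of 42 B cells had a Y-linked read, while 0 of 25 uninjured B cells did and the labels name the mice female.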

How the results depend on the processing

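Counts of higher and lower genes (372 and 245) became 594 and 662 in MHC-II-low cells alone, 626 and 95 without the cell of most reads, 230 and 470 with TMM factors, 163 and 125 with a filter of 200 CPM, 7329 and 1701 without a filter, and 145 and 48 at 4-fold. The median ratio (0.01) became -0.21, 0.49 and -0.42 in the first 3 of these and 0.35 without a filter. The share of higher genes with a 60 dpi T cell level no more than 2-fold below that of B cells (85.2%) was 90% in MHC-II-high cells, 80.4% with TMM factors, 58.4% without a filter and 75.2% at 4-fold. The share for lower genes in uninjured cells (26.1%) was 15.1% in MHC-II-low cells, 11.6% without the cell of most reads, 37.7% with TMM factors, 17.8% without a filter and 8.33% at 4-fold. The cause of these shifts was not tested. Sign changed in MHC-II-low cells for Abhd17b (0.089), H2-Aa (1.01), H2-Ab1 (0.28), H2-Ob (5.76), Bank1 (0.87), Ccr7 (1.56) and Hspa1b (1.10). It changed for Iglc2 in MHC-II-high cells (0.00083, and 0.068 without T cell markers and Y-linked reads, an alternative added after seeing the data), for Atf3 with no Csf1r limit (-0.37) and the mean over cells (-0.49), and for Hspa1b with Csf1r under 50 CPM (1.16) and without the cell of most reads (0.58). No paired analysis was possible because each condition is 1 library and no test was made. Uninjured values are limited by the number of B cells, 25.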
